A study of Mus musculus with 8 samples.

Results

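Complement is a cascade of plasma and tissue proteins that tags cells, debris and microbes for removal. Transcripts of 9 of its components were followed here in left ventricle, chosen by gene symbol from the 55385 genes of the deposited table: C1qa, C1qb, C1qc, C1ra, C1s1, C3, C4b, Cfb and Serping1. The libraries came from male C57BL6 mice, with 4 libraries of transgene carriers (Mst1-TG) and 4 of their non-transgenic littermates (WT). The transgene overexpresses the Hippo pathway kinase Mst1 in cardiomyocytes alone, from the promoter of alpha-myosin heavy chain, and its carriers develop dilated cardiomyopathy. The age of the mice is given as 3 weeks in the series' design text and as 3 months in the extraction protocol. The growth protocol names mice of 3 weeks and of 5.5 months, and it also describes Gal3-KO mice, which were not analysed here.

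The classical pathway starts with C1, in which the recognition molecule C1q, built from 3 different chains, carries the serine proteases C1r and C1s. Active C1s cuts C4 and C2, and the convertase they form cuts C3, whose large fragment becomes covalently attached to the target. Factor B, the product of Cfb, forms with C3b the convertase of the alternative pathway, which amplifies the deposit. C1 inhibitor, the product of Serping1, inactivates C1r and C1s. The liver supplies most complement proteins in plasma, but C1q is made largely by macrophages and related myeloid cells, and fibroblasts and endothelial cells make C1r, C1s, C4 and C1 inhibitor in tissues.

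The member genes lie at 5 places in the GENCODE M21 annotation of GRCm38, whose identifiers and versions match those of all 9 rows. The 3 C1q genes form a cluster on chromosome 4 on the reverse strand, with C1qb at 136880129 to 136886187, C1qc at 136889804 to 136893065 and C1qa at 136895917 to 136898803. C1ra (chromosome 6, 124512405 to 124523443, forward strand) and C1s1 (124530345 to 124542359, reverse strand) are neighbours that point towards each other. C4b (34728380 to 34743882) and Cfb (34856374 to 34862518) lie on chromosome 17 on the reverse strand, C3 is farther along the same chromosome (57203970 to 57228136, reverse strand), and Serping1 is on chromosome 2 (84765387 to 84775444, reverse strand).

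Promoter windows of 300 bases, from 250 before to 50 after the RefSeq start on GRCm38.p6, were found for 5 of the 9 members (C1qb, C1qc, C1ra, C1s1 and C3). The first pair below belongs to C1q chains, whose levels moved together across libraries. The second pair belongs to the adjacent protease genes C1ra and C1s1, whose ratio is compared between the groups below. The windows are chr4:136886151-136886450 (reverse strand), chr4:136892865-136893164 (reverse strand), chr6:124512371-124512670 (forward strand) and chr6:124542310-124542609 (reverse strand). Each is printed 5′ to 3′ along its gene, with capitals for matches on either strand to the PU.1 core GAGGAA, the TEAD core GGAATG, the GAS element TTCNNNGAA or the C/EBP core TTGCNNAA. The core of the interferon-stimulated response element, a pair of GAAA repeats with 2 bases between them, was searched as well and had no match in the 5 windows.
C1qb: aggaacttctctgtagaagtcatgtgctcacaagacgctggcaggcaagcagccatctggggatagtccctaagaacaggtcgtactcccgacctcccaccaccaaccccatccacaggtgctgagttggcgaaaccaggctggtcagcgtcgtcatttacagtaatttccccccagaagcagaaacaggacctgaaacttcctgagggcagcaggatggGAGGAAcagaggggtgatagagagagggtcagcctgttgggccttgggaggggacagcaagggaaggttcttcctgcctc
C1qc: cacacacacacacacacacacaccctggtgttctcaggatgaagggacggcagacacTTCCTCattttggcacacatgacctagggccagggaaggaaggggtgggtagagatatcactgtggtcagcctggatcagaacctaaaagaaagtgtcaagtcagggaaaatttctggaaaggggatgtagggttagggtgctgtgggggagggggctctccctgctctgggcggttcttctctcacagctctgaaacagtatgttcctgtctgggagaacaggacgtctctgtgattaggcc
C1ra: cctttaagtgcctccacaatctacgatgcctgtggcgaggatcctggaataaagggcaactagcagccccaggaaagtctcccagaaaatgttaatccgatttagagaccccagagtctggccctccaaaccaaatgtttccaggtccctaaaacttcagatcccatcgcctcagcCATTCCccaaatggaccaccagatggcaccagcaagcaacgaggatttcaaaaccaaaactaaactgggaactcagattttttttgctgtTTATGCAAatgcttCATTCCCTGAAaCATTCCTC
C1s1: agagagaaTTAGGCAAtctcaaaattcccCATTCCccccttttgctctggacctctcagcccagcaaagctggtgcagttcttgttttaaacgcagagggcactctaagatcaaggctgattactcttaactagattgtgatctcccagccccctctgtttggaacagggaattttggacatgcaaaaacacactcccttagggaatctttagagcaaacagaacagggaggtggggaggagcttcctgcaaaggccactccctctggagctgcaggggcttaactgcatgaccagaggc
The C1qb and C1qc windows each held 1 PU.1 match, beginning 30 and 193 bases before the start, and no match to the other motifs. PU.1 is a transcription factor of myeloid cells, and 28.3% of the promoters of 27025 genes held its core. The C1ra window held 3 TEAD matches, beginning 74 bases before and 30 and 42 bases after the RefSeq start. It also held 1 GAS match (32 bases after) that shares bases with the second TEAD match and 1 PU.1 match (44 after) that shares bases with the third. Its 1 C/EBP match began 16 bases after that start. In GENCODE M21 C1ra begins at 124512405, near the 5′ end of this window, so most of the window lies inside the annotated gene. The C1s1 window held 1 TEAD and 1 C/EBP match, beginning 221 and 242 bases before the start. TEAD proteins bind DNA for YAP and TAZ, the coactivators restrained by the Hippo pathway, and 14.6% of all promoters held that core. The C3 window, not printed, held a single C/EBP match beginning 45 bases before the start, where 10.8% of all promoters held one. GAS matches were in 8.47% and interferon-response matches in 3.49% of promoters. These matches are descriptions of sequence and were not tested for binding.

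The libraries held 21193536 to 23809256 estimated counts. Stk4, the mouse gene for the Mst1 kinase, averaged 27.2 ± 1.88 CPM (counts scaled to a common library size) over the WT libraries and 1608 ± 130.3 CPM over the Mst1-TG libraries (SD, n = 4), with no overlap. Mitochondrially encoded genes took 21.4% to 23.8% of counts in WT and 12.9% to 14.4% in Mst1-TG, which makes the scaling of libraries matter for small differences. CPM values below are scaled by TMM factors, which adjust for such differences in composition and ran from 0.891 to 0.937 in WT and from 1.08 to 1.13 in Mst1-TG. Cardiomyocyte markers summed to 39097 CPM or more in every library, with Myh6, the adult myosin heavy chain, at 21712 ± 2124 CPM in the WT libraries against 16454 ± 2603 CPM in the transgenic ones, so the libraries carried the markers of the labelled tissue. Nothing in the labels says for each sample that it is a separate animal, so the tests gauge only how far these 8 libraries vary, which may be technical.

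All 9 members passed the filter on low counts. By the edgeR quasi-likelihood test with Benjamini-Hochberg adjustment over all 15314 genes tested, 1 of the 9, C4b, was higher in Mst1-TG, none was lower and 8 did not pass. Of all genes tested 42.3% passed that threshold, 21.2% as higher (3244 genes) and 21.1% as lower (3238 genes). Without adjustment 2 of the 9 had a p below 0.05, C4b and Serping1, and DESeq2 likewise called 1 of the 9. The median log2 fold change of Mst1-TG over WT was 0.04 over the 9 members, against 0.01 over all genes. For none of the 9 did the 4 Mst1-TG libraries stand clear of the 4 WT libraries, which they did in 40.3% of all genes tested, 20.2% with Mst1-TG above and 20.1% with Mst1-TG below. Scaled by library totals alone, the median of all genes rose to 0.29 and that of the members to 0.33, and 5 members passed as higher.

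**Figure D1:**
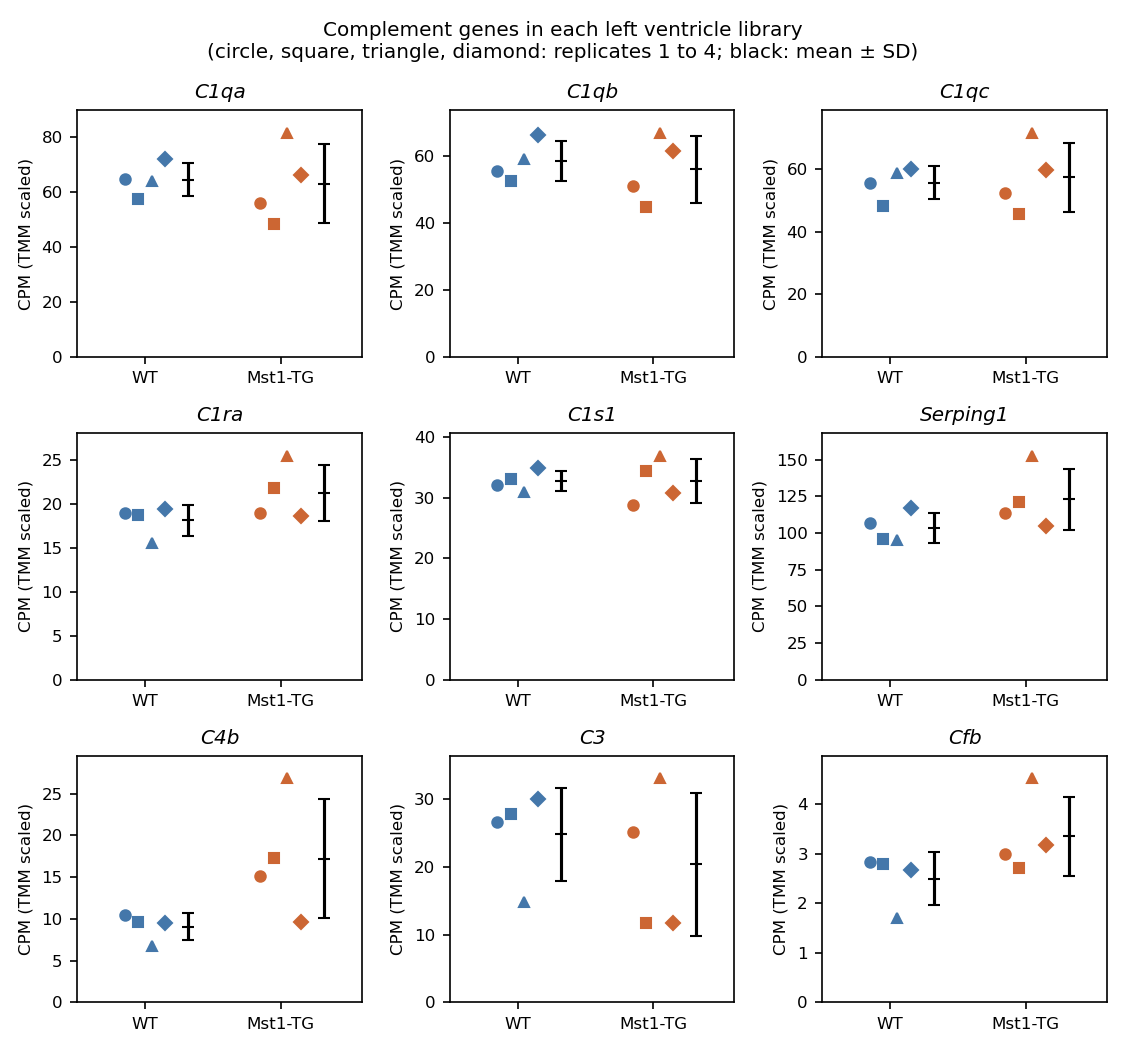
TMM-scaled CPM (vertical axis from 0) of the 9 complement genes in the 4 WT and 4 Mst1-TG libraries, with marker shapes for replicate numbers and black bars for the mean ± SD. Mst1-TG 3 is the highest of the 4 Mst1-TG libraries in all 9 panels, and the groups overlap in every panel.

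Mst1-TG 3 had the highest level of all 9 genes within its group. That library also stood at an end of its group for other gene lists. Its summed level was the highest of the 4 for macrophage (465 CPM), endothelial (3421 CPM), mesothelial (44.8 CPM), interferon-response (282 CPM) and acute-phase genes (549 CPM), and the lowest for cardiomyocyte (39097 CPM) and erythroid genes (3591 CPM). The part of this composition in the members' levels was not tested. Among the WT libraries WT 4 was highest for 7 genes and WT 3 lowest for 6. The lowest Mst1-TG library differed between genes: it was Mst1-TG 2 for the 3 C1q chains and Cfb, Mst1-TG 4 for C1ra, C3, C4b and Serping1, and Mst1-TG 1 for C1s1.

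Per kilobase of the longest annotated coding transcript, 4 genes led the set. In WT, C1qa stood at 62.0 ± 5.67 CPM per kb, Serping1 at 58.6 ± 5.79, C1qb at 53.8 ± 5.49 and C1qc at 46.3 ± 4.43 (SD, n = 4), and neighbours in that order overlapped. C1s1 followed at 11.1 ± 0.569 CPM per kb, below the range of C1qc, and then C1ra at 6.08 ± 0.595, below the range of C1s1. C3 was at 4.83 ± 1.33, overlapping C1ra, and C4b at 1.69 ± 0.299 and Cfb at 0.909 ± 0.193 came last without overlap. In Mst1-TG the order was led by Serping1 at 69.6 ± 11.8 CPM per kb, ahead of C1qa at 60.6 ± 13.8 in 3 of 4 libraries. C4b reached 3.20 ± 1.33 CPM per kb there and overlapped C3 at 3.97 ± 2.06, from which it had stood clear in WT.

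C1qa encodes the A chain of C1q. Its levels in WT 1 to 4 were 64.5, 57.5, 64.1 and 71.9 CPM, and in Mst1-TG 1 to 4 they were 55.9, 48.4, 81.6 and 66.3 CPM. The Mst1-TG libraries spread on both sides of the WT range, with 2 below its lowest value and 1 above its highest. Its log2 fold change was -0.03 ± 0.14 (SE, 95% interval -0.35 to 0.29, edgeR adjusted p = 0.88).

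C1qb, the B chain, was at 55.5, 52.7, 59.4 and 66.5 CPM in WT 1 to 4 and at 51.0, 44.8, 67.1 and 61.6 CPM in Mst1-TG 1 to 4. Again Mst1-TG 3 was highest and Mst1-TG 2 lowest of all 8 libraries. The log2 fold change was -0.06 ± 0.12 (SE, 95% interval -0.32 to 0.21, edgeR adjusted p = 0.731).

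C1qc, the C chain, was at 55.6, 48.2, 58.9 and 60.1 CPM in WT 1 to 4 and at 52.5, 45.6, 71.8 and 59.8 CPM in Mst1-TG 1 to 4. The same library order held as for the other 2 chains within Mst1-TG, from replicate 3 through 4 and 1 to 2. Its log2 fold change was 0.04 ± 0.13 (SE, 95% interval -0.23 to 0.32, edgeR adjusted p = 0.813). None of the 3 intervals reaches 1.5-fold in either direction.

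The chains kept nearly constant proportions to each other. Per kb, C1qa made up 37.3% to 39.0% of the 3 chains in the WT libraries and 37.0% to 39.3% in the Mst1-TG libraries. C1qb made up 32.0% to 33.9% and 30.9% to 33.3%, and C1qc 27.7% to 29.6% and 29.2% to 30.2%. The log2 ratio of C1qa to C1qb differed by 0.02 between the groups (exact permutation test, two-sided p = 0.771, adjusted p = 0.882 over 8 ratios). The ratios of C1qa and of C1qb to C1qc were lower in Mst1-TG by 0.08 and 0.10 on the log2 scale, with overlapping groups (exact permutation p = 0.0857 and 0.114, adjusted p = 0.137 and 0.152).

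The summed level of 14 macrophage markers was 339 to 440 CPM in WT and 340 to 465 CPM in Mst1-TG, and Mst1-TG 3 was highest here too. Of the 14 markers none was higher and 3 were lower in Mst1-TG (edgeR), beside 21.2% and 21.1% of all genes tested. The 3 were Cd163 (-0.55 ± 0.14), Lyve1 (-0.49 ± 0.14) and Folr2 (-0.74 ± 0.18, log2 ± SE). The other 11 did not pass, among them Csf1r, the receptor for macrophage growth factor (0.01 ± 0.11), and Lyz2, a lysozyme (-0.05 ± 0.14). Mertk (-0.07 ± 0.11), Mrc1 (0.29 ± 0.12), Cx3cr1 (0.20 ± 0.15) and Adgre1 (0.11 ± 0.09) were also among these 11. The rest of the 11 all had positive values: Fcgr1 (0.59 ± 0.26), Ms4a7 (0.54 ± 0.26), Cd14 (0.52 ± 0.23), Trem2 (0.38 ± 0.22) and Cd68 (0.32 ± 0.17). The median over the 14 was 0.16. With library totals only, 8 of the 14 passed as higher, none as lower, and their median was 0.44. That fit called far more genes higher than lower over the whole table. The mean log2 level of the 3 chains exceeded that of the markers by 2.02 ± 0.0532 in WT and 1.92 ± 0.119 in Mst1-TG (SD, n = 4 each), and the groups overlapped. In bulk tissue, fewer cells of a type and less RNA per cell cannot be told apart.

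**Figure D2:**
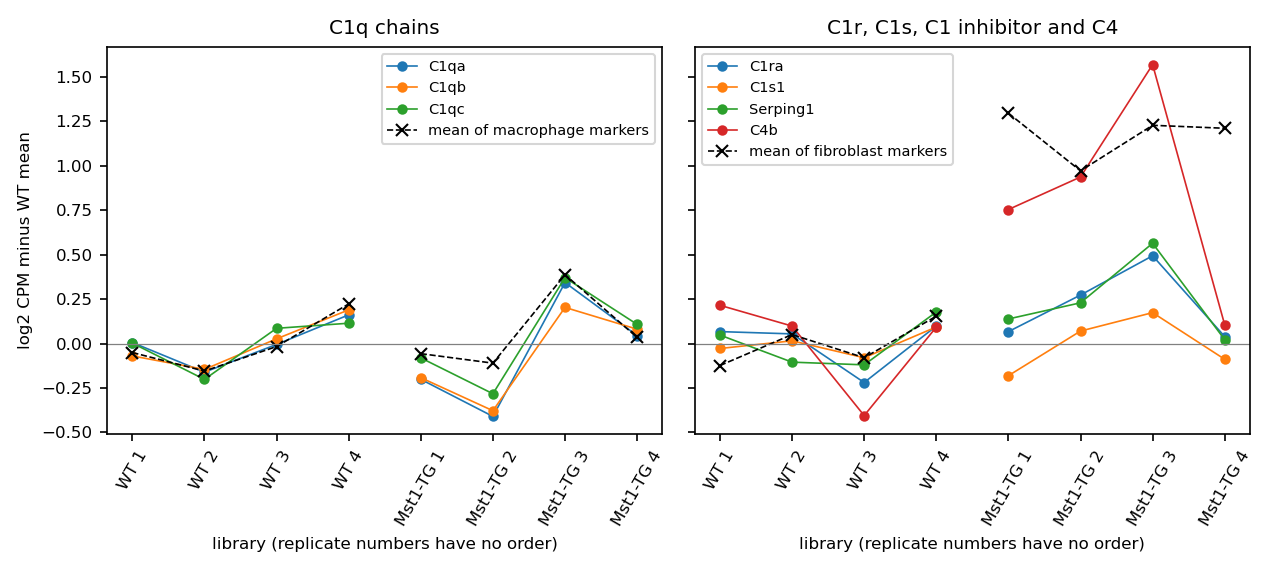
Level of each gene in each library as log2 CPM minus its mean in WT, with C1q chains and the mean of 14 macrophage markers on the left, and C1ra, C1s1, Serping1 and C4b with the mean of 10 fibroblast markers on the right. Lines join libraries of 1 group only for the eye. The C1q chains and macrophage markers lie on both sides of 0 in both groups, whereas fibroblast markers lie 0.97 to 1.30 above the WT mean in Mst1-TG and C1s1 lies between -0.18 and 0.17 there.

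For the proteases that C1q carries, neither gene passed. C1s1, which encodes C1s, was at 32.1, 33.1, 31.0 and 34.9 CPM in WT 1 to 4 and at 28.9, 34.4, 36.9 and 30.8 CPM in Mst1-TG 1 to 4. The WT values lay within the Mst1-TG range. With a log2 fold change of -0.00122 ± 0.083 (SE, 95% interval -0.18 to 0.18, edgeR adjusted p = 0.993) it had the narrowest interval of the 9 members.

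C1ra, which encodes C1r, was at 18.9, 18.8, 15.5 and 19.4 CPM in WT 1 to 4 and at 18.9, 21.8, 25.5 and 18.6 CPM in Mst1-TG 1 to 4. Mst1-TG 2 and 3 were above every WT library, while Mst1-TG 1 and 4 were within the WT range. The log2 fold change of 0.23 ± 0.11 did not pass (SE, 95% interval -0.02 to 0.47, edgeR adjusted p = 0.123).

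Within libraries, C1ra stood higher relative to C1s1 in Mst1-TG. The log2 ratio of C1ra to C1s1 was -0.85 ± 0.10 in WT and -0.63 ± 0.0807 in Mst1-TG (SD, n = 4 each), a difference of 0.22 with groups that did not overlap. The exact permutation test gave p = 0.0286, the smallest that 4 against 4 can give, and an adjusted p of 0.0571 over the 8 ratios compared, which missed the threshold of 0.05. A ratio within a library does not depend on how libraries are scaled. The near-identical copies C1rb and C1s2, whose reads could be shared with these genes, had 1 and 6 counts over all 8 libraries.

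Serping1, the inhibitor of both proteases, was at 107, 96.0, 94.98 and 117 CPM in WT 1 to 4 and at 114, 121, 153 and 105 CPM in Mst1-TG 1 to 4. Mst1-TG 2 and 3 exceeded all WT libraries and the other 2 did not. Its log2 fold change was 0.25 ± 0.11 (SE, 95% interval 0.01 to 0.49, edgeR adjusted p = 0.0942). It passed when Mst1-TG 4 was left out (0.32, adjusted p = 0.04), under library totals (0.53, adjusted p = 0.00333) and when no low-count filter was applied (0.25, adjusted p = 0.00443). Relative to C1s1, its target, it stood 0.24 higher on the log2 scale in Mst1-TG (1.65 ± 0.0981 in WT and 1.90 ± 0.132 in Mst1-TG), without overlap (exact permutation p = 0.0286, adjusted p = 0.0571).

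C4b, which encodes complement component C4, was the member that rose. Its levels were 10.4, 9.61, 6.75 and 9.57 CPM in WT 1 to 4 and 15.2, 17.3, 26.8 and 9.66 CPM in Mst1-TG 1 to 4. In Mst1-TG, 3 of the 4 libraries lay above every WT library, and Mst1-TG 4 lay below WT 1. The fold change was 1.90 (log2 0.92 ± 0.29 SE, 95% interval 0.27 to 1.57, edgeR adjusted p = 0.0286). It was 0.63 without Mst1-TG 3, the highest library (adjusted p = 0.0317). It did not pass without Mst1-TG 2 (0.92, adjusted p = 0.0649), WT 2 (0.95, 0.0647), WT 3 (0.80, 0.0739) or WT 4 (0.95, 0.0619), nor with the replicate number as a block (0.85, 0.0956), with limma-voom (0.85, 0.068), without a filter on low counts (0.93, 0.127) or against a minimum 1.5-fold change (adjusted p = 0.306). The close copy C4a had 17 counts over the 4 WT and 25 over the 4 Mst1-TG libraries, against 739 and 1664 for C4b.

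In the same hearts, where C4b rose and C1ra and Serping1 did not pass, fibroblast markers were higher. All 10 rose (edgeR), with a median log2 fold change of 1.13, and their summed level was 2702 to 3587 CPM in WT and 6053 to 8503 CPM in Mst1-TG. Col1a1 and Col1a2, the chains of type I collagen, changed by 1.61 ± 0.16 and 1.67 ± 0.13, the proteoglycan Dcn by 1.21 ± 0.09 and the type III collagen Col3a1 by 0.87 ± 0.15 (log2 ± SE). The 2 protease genes did not follow: the mean log2 level of C1ra and C1s1 lay 2.48 ± 0.0985 below that of the fibroblast markers in WT and 3.55 ± 0.266 below it in Mst1-TG (SD, n = 4 each), without overlap. Mst1-TG 4, the lowest library of its group for C4b, C1ra and Serping1, had fibroblast markers 1.21 above the WT mean on the log2 scale, within the range of the other 3. The part of the fibroblast markers in the level of C4b was not tested.

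C3, the protein on which all pathways converge, varied most between libraries. It was at 26.6, 27.8, 14.8 and 30.1 CPM in WT 1 to 4 and at 25.1, 11.7, 33.1 and 11.7 CPM in Mst1-TG 1 to 4. The libraries fell into high and low ones in both groups, with WT 3, Mst1-TG 2 and Mst1-TG 4 low. The log2 fold change of -0.28 ± 0.41 (SE, 95% interval -1.26 to 0.70, edgeR adjusted p = 0.635) leaves differences of 2-fold in the direction of a fall within its interval.

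The 3 libraries low in C3 were also the 3 with the lowest summed level of 5 adipocyte markers (Adipoq, Plin1, Cidec, Retn and Lep). These sums were 1.23, 0.930, 0.761 and 6.15 CPM in WT 1 to 4 and 6.20, 0.0432, 1.59 and 0.167 CPM in Mst1-TG 1 to 4. WT 2, at 0.930 CPM, lay close to WT 3 although it was not low in C3. None of the 5 passed the filter on low counts. Cfd, which encodes the adipocyte product factor D that activates factor B, ranged from 0.0517 to 9.42 CPM over WT and from 0 to 5.11 CPM over Mst1-TG, and it did not pass (edgeR log2 -0.95 ± 1.55 SE, adjusted p = 0.673). Mesothelial markers, from the cell layer that covers the heart, summed to 19.9 to 30.5 CPM in WT and 25.1 to 44.8 CPM in Mst1-TG. WT 3 was the lowest library and Mst1-TG 3 the highest, and Mst1-TG 2 was the lowest of its group. Mst1-TG 4, low in C3, was at 31.7 CPM, above every WT library and beside 31.5 CPM in Mst1-TG 1, which was not low in C3. Hepatocyte markers summed to 81.7, 77.7, 25.7 and 28.4 CPM in WT 1 to 4 and to 56.1, 28.6, 41.4 and 25.7 CPM in Mst1-TG 1 to 4. These sums too were lowest within their groups in the libraries low in C3, while WT 4, at 28.4 CPM, was not low in C3. The part of adipocyte, mesothelial or hepatocyte RNA in the level of C3 was not tested.

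Cfb was the least abundant member, with 36 to 111 counts per library. Its levels were 2.83, 2.79, 1.71 and 2.67 CPM in WT 1 to 4 and 3.00, 2.72, 4.53 and 3.18 CPM in Mst1-TG 1 to 4. Of the Mst1-TG libraries 3 lay above every WT library, and Mst1-TG 2 was within the WT range. Its log2 fold change was 0.43 ± 0.22 (SE, 95% interval -0.05 to 0.90, edgeR adjusted p = 0.138). The gene Gm20547, annotated across Cfb and C2 on the same strand, could share its reads and held 13 counts over all libraries.

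Both C4b and Cfb stood higher relative to C3 in Mst1-TG, within libraries. The log2 ratio of C4b to C3 was -1.41 ± 0.228 in WT and -0.18 ± 0.536 in Mst1-TG, and that of Cfb to C3 was -3.24 ± 0.169 and -2.45 ± 0.577 (SD, n = 4 each). The differences of 1.22 and 0.79 came with groups that did not overlap. The exact permutation test gave p = 0.0286 and adjusted p = 0.0571 for each. For Cfb to C3 the gap was narrow, with Mst1-TG 1 at -3.03 and WT 3, with 36 counts of Cfb, at -3.05. That ratio was highest in Mst1-TG 2 and 4 (-2.07 and -1.85), which were low in C3, against -2.84 in Mst1-TG 3. Of the 8 ratios 4 had groups without overlap, each with C1s1 or C3 as its denominator. The nearest Mst1-TG and WT libraries stood at -0.73 and -0.76 for C1ra to C1s1, and at 1.76 and 1.74 for Serping1 to C1s1. Single genes had groups without overlap in 40.3% of all genes tested, and that share was not determined for pairs of genes. None of the 8 ratios passed after adjustment. With 4 ratios at the smallest possible p, adjustment over 8 cannot give less than 0.0571, so the number of libraries sets this miss. The ratio of C1qa to C1s1, which sets a C1q chain against the protease of the same complex, differed by -0.05 between the groups (exact permutation p = 0.886, adjusted p = 0.886).

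**Figure D3:**
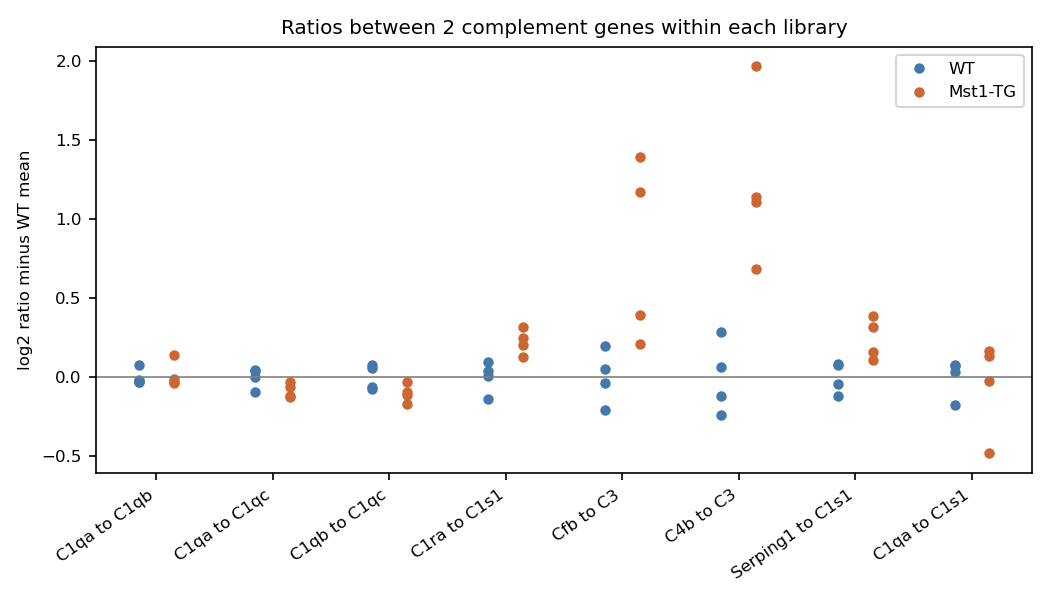
Log2 ratio of 2 complement genes in each library minus its mean in WT, for the 8 ratios compared (blue WT, orange Mst1-TG, 4 libraries each). The Mst1-TG libraries lie above all WT libraries for C1ra to C1s1, Cfb to C3, C4b to C3 and Serping1 to C1s1, and overlap them for the other 4 ratios.

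The number of members that passed changed with the scaling, and also with other settings given in the closing section. With TMM factors, relative log expression factors, or TMM after leaving out mitochondrial and the 20 most abundant genes, 1 member passed. With library totals only, C1ra (0.51), C1s1 (0.28), C4b (1.21), Cfb (0.71) and Serping1 (0.53) passed as higher on the log2 scale (edgeR adjusted p = 0.00249, 0.0162, 0.00609, 0.0151 and 0.00333), in a fit where 7409 genes were called higher and 1592 lower. The median of all genes was 0.29 under that scaling, beside the 0.28 of C1s1.

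**Figure D4:**
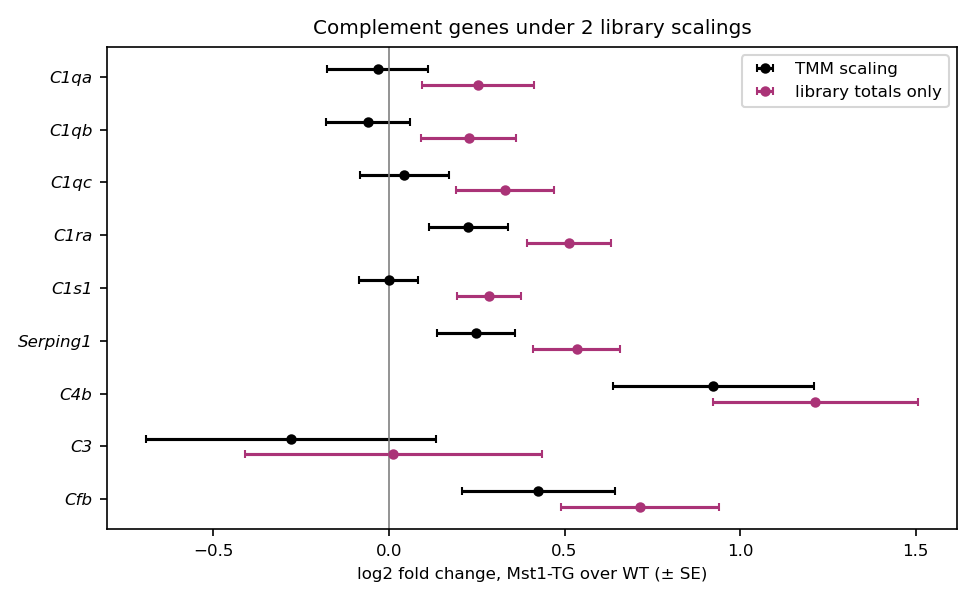
Log2 fold change of Mst1-TG over WT (± SE) of the 9 complement genes with TMM scaling (black) and with library totals only (purple). Every purple point lies to the right of its black point, and C1qa, C1qb, C1s1 and C3 change sign between the scalings.

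The rest of the complement system was taken from 6 lists with 49 further genes. After the low-count filter 29 remained. Among these 4 rose, 6 fell and 19 did not pass (edgeR), where 21.2% and 21.1% of all genes did, and their median log2 fold change was -0.01. With library totals only, 10 were called higher and 3 lower, with a median of 0.28. Among initiators of the classical and lectin pathways, 5 of 13 listed were tested and 2 rose. Masp1, the serine protease that with its relatives triggers the lectin pathway, averaged 10.4 ± 1.57 CPM in WT hearts and 44.0 ± 6.19 CPM in transgenic hearts (SD, n = 4; log2 2.09 ± 0.12 SE, edgeR adjusted p = 5.86e-08). Colec12, a scavenger receptor of the collectin family, went from 26.7 ± 1.6 to 57.6 ± 3.24 CPM (log2 1.11 ± 0.07). C2, the partner of C4 in the classical convertase, whose gene lies upstream of Cfb on the same strand and ends 85 bases before it, did not pass (0.54 ± 0.27, edgeR adjusted p = 0.136). C2 transcripts averaged 1.45 CPM over WT and 2.10 CPM over Mst1-TG libraries. The recognition molecules Fcna (-0.22 ± 0.28) and Colec11 (-0.26 ± 0.18) did not pass either.

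Masp1 was at 9.02, 12.6, 9.70 and 10.1 CPM in WT 1 to 4 and at 41.9, 53.2, 39.9 and 41.1 CPM in Mst1-TG 1 to 4. The groups stood far apart, and in contrast to the 9 members Mst1-TG 3 was the lowest library of its group.

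Other regulators moved in both directions. Among fluid-phase regulators 5 of 9 were tested, of which 2 fell. Vtn, which encodes vitronectin, an inhibitor of the membrane attack complex and an adhesion protein, went from 47.1 ± 5.81 to 15.1 ± 2.59 CPM (log2 -1.64 ± 0.12), and Cpn2, a subunit of the carboxypeptidase that inactivates anaphylatoxins, changed by -2.65 ± 0.26. Clu, or clusterin, was abundant at 224 and 263 CPM and did not pass (0.23 ± 0.14, edgeR adjusted p = 0.202). Among 8 membrane regulators 7 were tested. Susd4, an inhibitor of the convertases, rose (1.16 ± 0.26), while Cr1l, which encodes the rodent regulator Crry (-0.33 ± 0.06), and Cd59a, which blocks the membrane attack complex (-0.27 ± 0.07), fell, whereas with library totals only no membrane regulator was called lower and 2 were called higher.

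Of 8 tested receptors none rose and 2 fell, beside 21.1% of all genes that fell: C1qbp, a mainly mitochondrial protein first named for binding C1q (-0.75 ± 0.09), and Cd93, which is abundant in endothelium (-0.29 ± 0.09). With library totals only, 3 receptors were called higher and 1 lower, and their median was 0.37. The anaphylatoxin receptors C3ar1 (0.14 ± 0.14), C5ar1 (-0.01 ± 0.15) and C5ar2 (0.02 ± 0.19) did not pass. The receptor for C3 fragments formed by Itgam (0.26 ± 0.13) and Itgb2 (0.17 ± 0.14) did not pass either. Properdin, or Cfp, which stabilises the alternative convertase, did not pass (-0.41 ± 0.17, edgeR adjusted p = 0.0651). Of 7 terminal components only C7 (0.05 ± 0.27) and C8g (-0.60 ± 0.30) passed the filter on low counts, and neither was called.

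**Figure D5:**
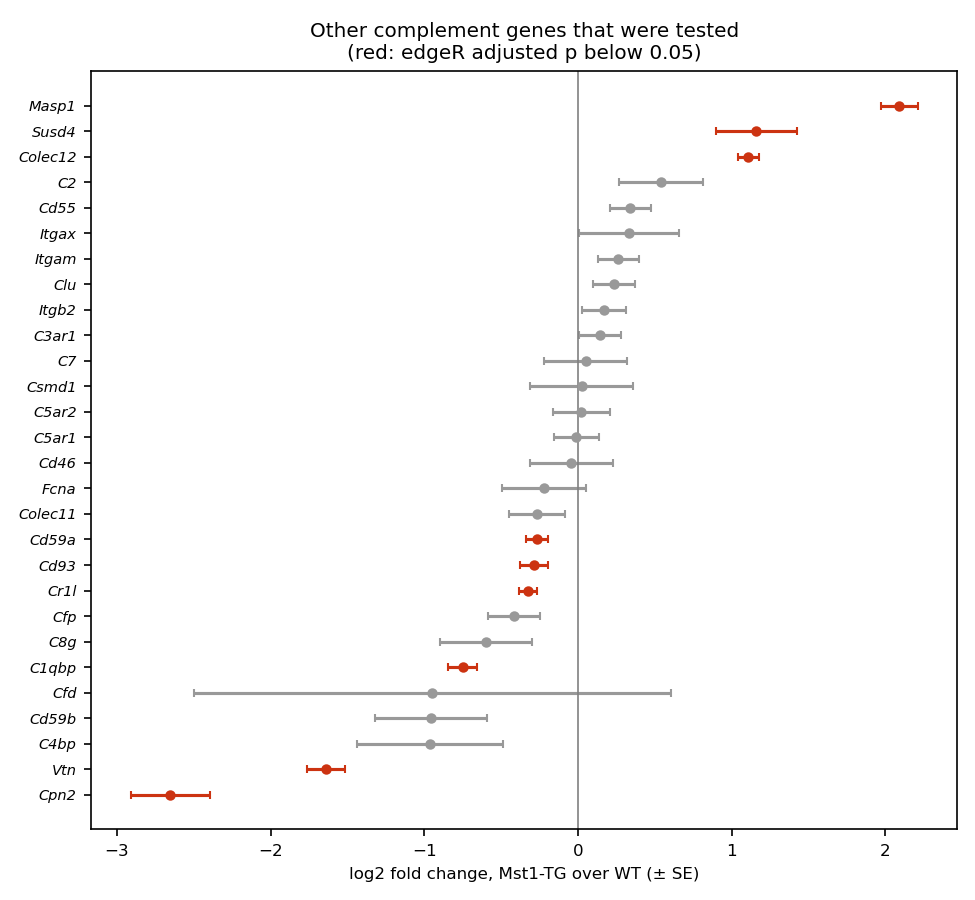
Log2 fold change of Mst1-TG over WT (± SE) of tested complement genes outside the 9 members, in order of size and without 1 gene that is not reported, with red for an edgeR adjusted p below 0.05. Masp1, Susd4 and Colec12 are red on the right, and Cpn2, Vtn, C1qbp, Cr1l, Cd93 and Cd59a are red on the left.

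Genes of 2 inflammatory responses that can induce complement genes were set beside the members. Over all genes tested, 21.2% were called higher and 21.1% lower (edgeR). With library totals only the medians of the 2 lists below were 0.27 and 0.49. Of 16 interferon-response genes 1 rose and 2 fell (edgeR), with a median of -0.02: the chemokine Cxcl10 (2.46 ± 0.41), and the chemokine Cxcl9 (-1.32 ± 0.24) and the antiviral protein Rsad2 (-0.82 ± 0.14). Irf1, a transcription factor of that response, did not pass (-0.23 ± 0.10). Of 15 acute-phase and NF-kB genes 11 were tested and 4 rose, with a median of 0.21: the NF-kB subunits Nfkb2 (0.58 ± 0.09) and Relb (0.52 ± 0.12), the C/EBP factor Cebpd (0.83 ± 0.19) and the adhesion molecule Icam1 (0.56 ± 0.19). Hepatocyte markers were present at 25.7 to 81.7 CPM in WT and 25.7 to 56.1 CPM in Mst1-TG in sum, and none of the 5 tested passed (edgeR; 1 at an unadjusted p below 0.05, and 1 called by DESeq2).

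The genes whose course over the 8 libraries lay nearest to the members differed from member to member. Nearness was the root-mean-square difference of log2 CPM, each gene centred on its WT mean, among 12599 genes. Nearest to the mean of the C1q chains were Tap1, a peptide transporter of antigen presentation (0.0618), Psmb8, an immunoproteasome subunit (0.0631), and Spi1, which encodes PU.1 (0.0654). Nearest to C4b were the secreted glycoprotein Reln (0.185), the metalloprotease Adam33 (0.231) and the collagen Col23a1 (0.257). Each of the 3 was itself called higher, which largely follows from choosing genes near to C4b and is no separate result. Nearest to Serping1 were the adaptor Nedd9 (0.0549), Gpm6a (0.0662) and the lysosomal enzyme Arsa (0.0835). Nearest to C3 was Hp, or haptoglobin (0.282), followed by Trim34a (0.341) and Cdo1 (0.345). Those of the C1ra and C1s1 mean were Mpp2, Ctps2 and Hgsnat (0.058 to 0.0595), and those of Cfb were B3galt6, Gm49172 and Rpusd1 (0.152 to 0.166).

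Genes next to the members on the chromosome were set beside all genes tested, of which 21.2% rose and 21.1% fell (edgeR). Around C4b and Cfb, in the class III region of the major histocompatibility complex, 14 of 17 coding genes within 100 kb were tested, of which 5 rose and 2 fell (edgeR). Tnxb, which encodes tenascin-X, was one of those that rose (0.37 ± 0.06), as were Prrt1 (0.85 ± 0.20) and Nelfe (0.38 ± 0.08), while Ppt2 (-0.29 ± 0.07) and Neu1 (-0.23 ± 0.07) fell. Beside the C1q cluster, Ephb2 (0.34 ± 0.31) and Zbtb40 (-0.17 ± 0.13) were tested and did not pass. Next to C1ra, its relative C1rl, with means of 1.04 CPM over WT and 1.57 CPM over Mst1-TG, did not pass (0.60 ± 0.25, edgeR adjusted p = 0.0744), while Pex5, a peroxisomal import receptor, rose (0.31 ± 0.06). Near C3 1 of 4 tested genes fell, Trip10 (-0.56 ± 0.09), and near Serping1 2 of 11 rose and 3 fell.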

How the data were processed

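Left ventricle RNA from 8 samples, 4 Mst1-TG and 4 WT by their titles, was sequenced. According to the labels' protocols, the libraries were directional and were prepared after removal of rRNA from 200 ng of RNA. bcl2fastq 2.19.1.403 and kallisto 0.46.0, a pseudoaligner that gives estimated counts, are named in the submitters' processing notes. The authors deposited the estimated counts as whole numbers for 55385 genes, without scaling for library size. The genome build, annotation and strand setting are not given in the sources used. Of the identifiers 54487 match GENCODE M21 with their version.

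The counts went into edgeR 4.0.16 under R 4.3.3: filterByExpr (minimum count 10, minimum total count 15, 15314 genes kept), TMM factors, a robust quasi-likelihood F test and Benjamini-Hochberg adjustment over all genes kept, with a threshold of 0.05. The standard error is the log2 fold change divided by the root of F, and its median was 0.111. The biological coefficient of variation was 11.4%. Ratios used log2 CPM with a prior count of 2. DESeq2 1.42.0 and limma 3.58.1 served as alternatives. The script was tested on simulated data. No replicate pair agreed within sampling noise (the chi-square statistic divided by its degrees of freedom ran from 7.76 to 23.6). No set test was run.

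The 9 members, the lists and the motifs were chosen with earlier results of these data known. Named genes are the members, other complement genes that passed, the 3 nearest profiles per member group, abundant markers and annotated neighbours. Complement genes that did not pass, the response genes and some markers are named outside that rule, after their values were seen. Lists not described in the text were those of endothelial (0 higher and 3 lower of 10 tested), mural (2 and 4 of 8), neutrophil (0 and 0 of 3), lymphocyte (0 and 1 of 4), erythroid (0 and 0 of 5) and cardiomyocyte markers (0 and 6 of 10), and 1 of 6 mesothelial markers was higher. Values of some single genes of these lists are not reported here, although list counts and medians include them.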

Additional observations from a re-analysis of the deposited data

Results flagged for a closer look

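The highest or lowest of 4 libraries stood apart from the other 3 by more than Dixon's 95% critical value in 5 of 34 groups of values examined, where chance gives about 1 in 20. C1ra was at 15.5 CPM in WT 3, below the other WT libraries, and Cfb was at 1.71 CPM in WT 3, likewise the lowest. The log2 ratio of C1qa to C1qb was 0.28 in Mst1-TG 3 and 0.22 in WT 1, each the highest of its group. The log2 ratio of C1qa to C1s1 was 0.80 in WT 2, the lowest of WT.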

How the results depend on the processing

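With library totals only, 5 members passed in place of 1, C1qa (0.25), C1qb (0.23), C1s1 (0.28) and C3 (0.0124) turned positive, and C1ra (0.51), Cfb (0.71) and Serping1 (0.53) passed. C1s1, near 0, also turned positive with TMM after leaving out abundant genes (0.00216), without a count filter (0.00532) and with a minimum count of 50 (0.00711). C4b kept its direction but did not pass without a count filter (0.93), with limma-voom (0.85), against a minimum 1.5-fold change (0.92) or with the replicate block (0.85). No member passed under limma-voom (0), the 1.5-fold test (0) or the replicate block (0), while Serping1 passed without a count filter (0.25). The 1.5-fold test left 1742 genes in all and 5 other complement genes. Leaving out 1 library at a time gave 0 to 2 members called, and log2 fold changes of -0.18 to 0.07 for C1qa, -0.16 to 0.0342 for C1qb, -0.0815 to 0.14 for C1qc, 0.13 to 0.29 for C1ra, -0.0641 to 0.0546 for C1s1, -0.61 to -0.0867 for C3, 0.63 to 1.12 for C4b, 0.25 to 0.51 for Cfb and 0.13 to 0.32 for Serping1. It gave differences of -0.0257 to 0.0408 for the log2 ratio of C1qa to C1qb and -0.12 to 0.0941 for that of C1qa to C1s1. For the ratios, 3 against 4 libraries cannot go below an exact permutation p of 0.0571, so those tests say nothing about stability. The cause of these shifts was not tested. Samples with the same replicate number did not deviate together (correlations of -0.142, 0.075, 0.018 and -0.018). Such values cannot exclude a pairing and the labels state none, so whether the numbers are a pairing stays unknown. With the block 6187 genes and 10 other complement genes were called. At this depth Cfb, with 36 to 111 counts, and C4b, with 142 to 658, were the members least precisely counted.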
